A study of Homo sapiens with 4 samples.

Results

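The BCL2 family decides whether the outer membrane of the mitochondrion stays intact when a cell is stressed. Guardians such as BCL2, BCL2L1 (BCL-xL) and MCL1 bind and restrain the effectors BAX and BAK1, which otherwise form pores in that membrane and let cytochrome c out to start the caspase cascade. BH3-only proteins such as BCL2L11 (BIM), BID and BAD carry a single short helix, the BH3 segment, with which they block the guardians, and some of them also engage the effectors directly. Several of these genes are known to make a second protein of the opposite activity by alternative splicing.

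The genes described are 10 members of this family, chosen by name and found by their Ensembl identifiers: BCL2, BCL2L1, MCL1, BAX, BAK1, BCL2L11, BID, BAD, BCL2L12 and BCL2L13. They are 10 of the 35224 genes in the deposited tables and hold 116 of the 350863 listed splice junctions. Their ribosome footprints were set side by side in 2 established human lines: K562, derived from a chronic myeloid leukaemia and carrying the BCR-ABL1 fusion, and HepG2, derived from a liver tumour. Each line was profiled, with no treatment named, in 2 samples lysed in cycloheximide, a drug that holds elongating ribosomes in place, with fragments of footprint size kept and ribosomal RNA depleted by RiboZero. Each line stands for 1 tumour, and the labels name no separate cultures.

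A value here is a count of footprints that cross a splice junction, read only where the footprint maps to 1 place and the junction to 1 gene. Both samples of a line were pooled by the authors into 1 table, so there is no spread between samples, and every interval is an exact 95% interval for counting error alone. The tables held 10118105 junction reads for K562 and 12001095 for HepG2, of which 74.0% and 82.7% were unique. The labels fit the lines' markers: the red cell genes GYPB, RHAG and GATA1 had 1279, 7365 and 776 reads in K562 with 0 each in HepG2. MYB had 3091 and 1. ALB, AFP and APOB had 41, 162 and 17 reads in K562 against 349063, 371360 and 120618 in HepG2, and HNF4A had 0 and 1545. These are bulk lysates without matched RNA-seq here, so more footprints per cell, more cells with footprints, more mRNA and more ribosomes per mRNA cannot be told apart.

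The sequences across the junctions that choose between isoforms are shown first, because the isoform results rest on reads over these letters. Each runs 5′ to 3′ on the gene's strand, with the last 15 bases of the upstream exon in lower case and the first 15 bases of the downstream exon in capitals, from the GENCODE 29 transcripts on GRCh38. BCL2L1 has 1 acceptor and a pair of donors in the same exon, so that both forms end in the same capitals. The long form, BCL-xL, removes the intron chr20:31666087-31721654, and the short form, BCL-xS, removes chr20:31666087-31721843, both on the minus strand.
BCL2L1 long form: gagaacggcggctggGATACTTTTGTGGAA
BCL2L1 short form: cagagctttgaacagGATACTTTTGTGGAA

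The short form leaves out 189 bases, 63 codons with a remainder of 0, at chr20:31721655-31721843. This coding stretch carries the BH1 segment and the first part of the BH2 segment, which form much of the groove of BCL-xL. Its last letters are the lower-case ones of the long form.
BCL2L1 stretch left out of the short form: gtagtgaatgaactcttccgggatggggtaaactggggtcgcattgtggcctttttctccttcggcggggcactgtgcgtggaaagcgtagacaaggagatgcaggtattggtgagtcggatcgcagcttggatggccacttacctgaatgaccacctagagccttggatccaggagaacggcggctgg

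MCL1 joins its coding exons over the introns chr1:150578492-150578842 and chr1:150577492-150578243, on the minus strand. Skipping the exon between them, over chr1:150577492-150578842, leaves out 248 bases, which is not a whole number of codons (remainder 2), and the product is known as MCL1S, a form without BH1 and BH2.
MCL1 first intron: agacggccttccaagGCATGCTTCGGAAAC
MCL1 second intron: aaacaaagaggctggGATGGGTTTGTGGAG
MCL1 exon skipped: agacggccttccaagGATGGGTTTGTGGAG

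In BAX, the donor of the intron chr19:48955600-48955686 can instead join over chr19:48955600-48956197, on the plus strand, and this leaves out a 147-base exon in frame (remainder 0) that codes for the BH3 segment. In BCL2L12, the donor of chr19:49666800-49667018 can join over chr19:49666800-49668850, also on the plus strand, and this leaves out 143 bases out of frame (remainder 2).
BAX exon joined: ccttttgcttcagggTTTCATCCAGGATCG
BAX exon skipped: ccttttgcttcagggGATGATTGCCGCCGT
BCL2L12 exon joined: tccaactccacctagAAGCCCTGCCCAAGA
BCL2L12 exon skipped: tccaactccacctagGCCCAGCTACTCCAG

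Across the family, the pore former BAX was far lower in K562, and the mitochondrial relative BCL2L13 was far higher in K562. The BH3-only gene BCL2L11 was also higher in K562, but 559 of its 613 K562 reads lay on 1 junction in the 5′ untranslated region. Without that junction its ratio no longer lay wholly past 2-fold (1.87 to 6.01). The guardians BCL2L1 and MCL1 and the BH3-only gene BID lay within 2-fold of equal, and BCL2 had hardly any reads in either line. To be called, a gene needed the whole interval of its ratio, after TMM scaling for depth, to lie past 2-fold. Genes needed 20 reads over both tables to be compared. Of the 10 members 9 could be compared. Of these, 2 were higher in K562, where 16.8% of the 10956 genes compared were, and 1 was lower in K562, as were 21.9% of them. The member median was 0.41 on the log2 scale, K562 over HepG2, against -0.01 for all genes compared, so 3 calls of 9 are near the 38.7% called over all genes.

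**Figure D1:**
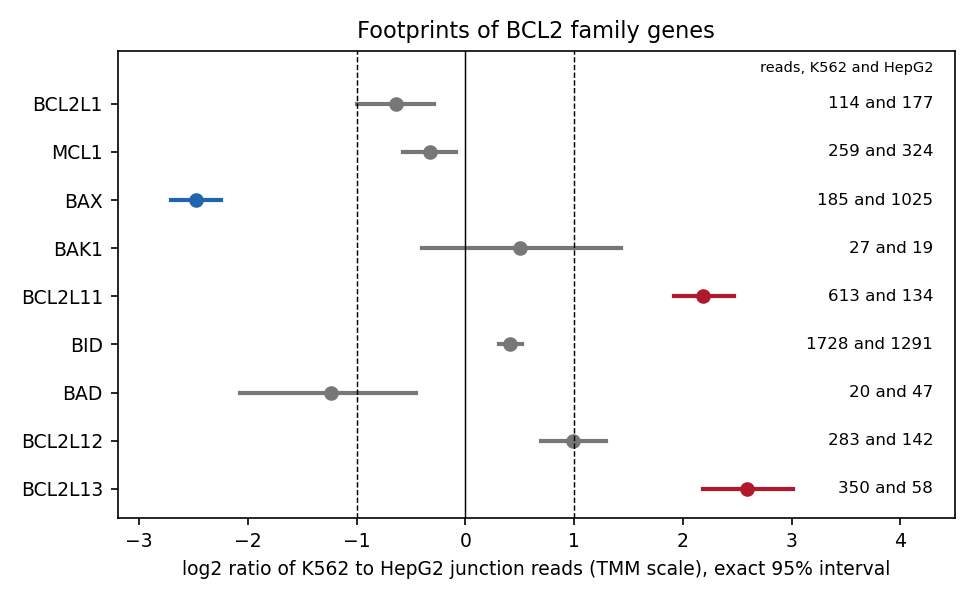
Log2 ratio of K562 to HepG2 junction reads for the 9 BCL2 family genes compared (points, x axis) with exact 95% intervals (bars). Dashed lines mark 2-fold. The points of BCL2L13 and BCL2L11 lie past the right line with their whole intervals, and BAX lies past the left line. Without its most-read junction the interval of BCL2L11 does not lie wholly past 2-fold.

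Scaling sets where equality lies. With scaling by total reads in place of TMM, the median of all genes moved to 0.41, and K562 took 58.0% of the calls, against 43.3% with TMM. Under that scaling BCL2L12 also counted as higher in K562 and MCL1 turned to the K562 side, at 0.09, so values within 2-fold are best read against the median of all genes.

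BCL2, the founding guardian (chr18:63123346-63320128), had 4 reads in K562 and 0 in HepG2. All 4 lay on the junction in the 5′ untranslated region, and its single coding junction of the main transcript had no unique read in either line. The exact intervals of those 0 reads reach up to 0.511 reads per 1000000 on that junction in K562 and 0.384 in HepG2.

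BCL2L1 (chr20:31664452-31723989), which codes for BCL-xL, had 114 reads in K562 and 177 in HepG2, which were 65.1% and 65.8% of its mapped reads. Its ratio was 0.641 (0.502 to 0.816), which is lower in K562 with the whole interval inside 2-fold. With scaling by total reads its log2 ratio was -0.22, and the interval of the ratio, 0.671 to 1.09, spans equality. Over the other 300 genes compared on chromosome 20 the median log2 ratio was -1.32, and over the 22 within 2 Mb it was -0.95, so BCL2L1, at -0.64, stood above both; the part of chromosome copy number was not tested.

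MCL1 (chr1:150574551-150579738), a guardian with a very short-lived protein, had 259 reads in K562 and 324 in HepG2. The ratio was 0.796 (0.673 to 0.940), and both main junctions gave a like value, with 107 and 134 reads at the first and 135 and 182 at the second. The pair of guardians can be compared between the lines without any depth scaling. MCL1 had 2.27 reads per BCL2L1 read in K562 and 1.83 in HepG2. The ratio of these, 1.24, had an interval of 0.923 to 1.67 that spans equality. Gene totals depend on unique mapping and on the junctions a gene offers, so 2.27 and 1.83 do not give the level of MCL1 against BCL2L1. On all mapped reads per coding junction MCL1 lay below BCL2L1, at 12.6 against 13.1 per 1000000 in K562 and 13.7 against 15.6 in HepG2.

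BAX (chr19:48954815-48961798), an effector that moves to the mitochondrion on activation, had 185 reads in K562 and 1025 in HepG2. It was 5.57-fold lower in K562 (4.76 to 6.55), and its log2 ratio stayed between -2.73 and -2.06 under all 10 alternative settings. The gap was uneven along the gene. The first junction, 34 bases after the start codon, had 21 reads in K562 and 22 in HepG2, or 0.950-fold (0.497 to 1.81). The next, at 86 bases, had 17 and 103, and the junction at 233 bases had 111 and 519. The last, at 474 bases, had 22 and 348 and was 15.9-fold lower in K562 (10.3 to 25.7).

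Genes around BAX ran the other way: the 78 compared within 2 Mb had a median log2 ratio of 0.57, with 22 higher in K562 and 7 lower.

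BAK1 (chr6:33572547-33580293), the effector that resides in the mitochondrial membrane, had 27 reads in K562 against 19 in HepG2. All of them crossed 1 of its 8 listed junctions. The ratio, 1.41 (0.758 to 2.69), spans equality and does not exclude a 2-fold difference at this depth. BAK1 counts are uncertain, since 32.5% of its mapped reads in K562 and 27.5% in HepG2 were unique. GENCODE lists the processed pseudogenes BAK1P1 on chromosome 20 and BAK1P2 on chromosome 11, and their part in the low unique share was not tested.

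BCL2L11 (chr2:111119378-111168447), whose product BIM binds all guardians, had 613 reads in K562 and 134 in HepG2, 4.55-fold higher in K562 (3.77 to 5.53). Nearly all of this came from 1 junction in the 5′ untranslated region, 13 bases before the start codon, with 559 reads in K562 and 117 in HepG2. It held 91.2% of the gene's reads in K562 and 87.3% in HepG2. With all genes counted only on coding junctions 60 or more bases past the start codon, BCL2L11 had 52 K562 reads against 16 HepG2 reads, and the ratio of 3.50 (1.97 to 6.57) no longer lay wholly past 2-fold. BCL2L11 was therefore on the K562 side in both parts of the transcript, but the call rested on the junction next to the start codon.

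BID (chr22:17734138-17774770), which caspase 8 cleaves to link death receptors to the mitochondrion, was the most-read member, with 1728 reads in K562 and 1291 in HepG2. The gene ratio was 1.33 (1.24 to 1.43). Its junctions did not share 1 ratio. At 12 bases after the start codon there were 275 reads in K562 against 67 in HepG2, or 4.09-fold (3.12 to 5.42). At 223 bases there were 482 and 441 (1.09), at 363 bases 149 and 58 (2.56), and at 576 bases 698 and 684 (1.02). The most- and second-most-read junctions thus lay near equality, while those at 12 and 363 bases were on the K562 side by more than their intervals.

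**Figure D2:**
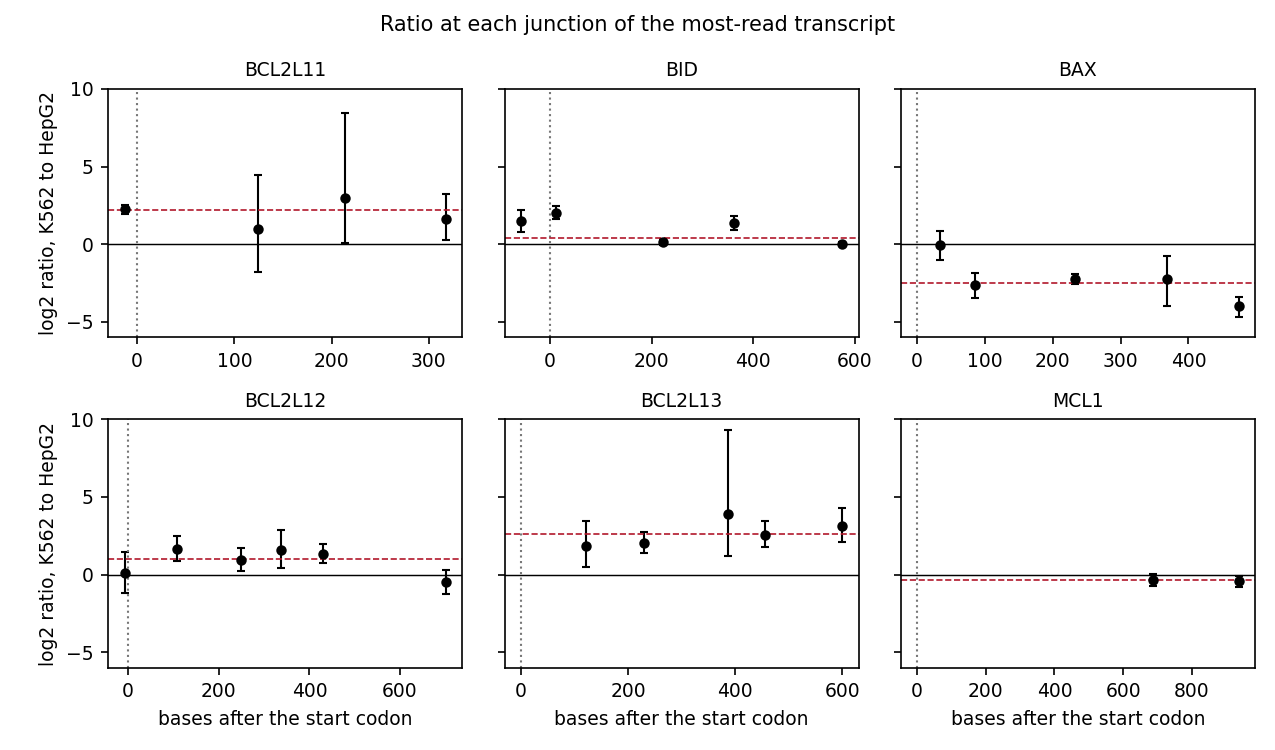
Log2 ratio of K562 to HepG2 reads (y axis) at each junction of the most-read transcript against its distance from the start codon in bases (x axis), with exact 95% intervals; the dashed line is the ratio of the whole gene. BCL2L11 has its narrow interval only beside the start codon, BID stands at 4.09-fold at 12 bases, 1.09 at 223, 2.56 at 363 and 1.02 at 576, and BAX is at 0.950-fold at 34 bases and lowest at 474 bases.

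A tilt next to the start codon was not peculiar to these genes. Over all genes, junctions in 5′ untranslated regions had a median log2 ratio of 0.87 (3059 junctions) and coding junctions within 30 bases of the start codon 0.48, against -0.21 for coding junctions 60 or more bases in. The 5′ untranslated share of reads was 20.2% for the members in K562 (18.9 to 21.6) and 6.78% in HepG2 (5.93 to 7.70), against 6.47% and 3.29% for all genes. Without BCL2L11 the member shares were 5.52% in K562 (4.73 to 6.40) and 3.24% in HepG2 (2.65 to 3.93). These shares give coding annotation precedence where transcripts disagree on a junction. With untranslated annotation first, they were 40.3% in K562 and 22.3% in HepG2 for the members, 29.8% and 19.5% without BCL2L11, and 10.2% and 6.27% for all genes, so whether the members other than BCL2L11 stand above all genes depends on that choice. What part this tilt has in the start-proximal values of BCL2L11, BID and BAX was not tested.

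BAD (chr11:64269830-64284704), which growth factor signals silence by phosphorylation, had 20 reads in K562 and 47 in HepG2. The ratio of 0.424 (0.238 to 0.729) was lower in K562 by more than counting error, without lying wholly past 2-fold. All 3 of its junctions with 10 or more reads were on the HepG2 side.

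BCL2L12 (chr19:49665142-49673916), an atypical relative, had 283 reads in K562 and 142 in HepG2. The ratio, 1.98 (1.62 to 2.44), straddles 2-fold. Its coding junctions from 107 to 429 bases ran from 1.95 to 3.09, and the last, at 702 bases, had 26 reads in K562 against 36 in HepG2, or 0.719-fold (0.417 to 1.22).

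BCL2L13 (chr22:17628855-17730855), also called BCL-rambo and known as a mitophagy receptor in the outer membrane, had 350 K562 reads against 58 HepG2 reads. It was 6.01-fold higher in K562 (4.54 to 8.07), the highest ratio of the members. Each of its 6 junctions with 10 or more reads was on the K562 side, and without the first 60 coding bases the ratio was 6.30. BCL2L13 and BID lie side by side on chromosome 22. The 20 genes compared within 2 Mb of BCL2L13 had a median log2 ratio of 0.75, with 8 higher in K562 and 1 lower, while the 270 over the chromosome had -0.21. Chromosome copy number was not measured, and its part in the BCL2L13 value was not tested.

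Levels of different genes were compared per coding junction of the most-read transcript, which removes the number of junctions a gene offers but not the spread between them. Coding junctions of BAX ran from 5 to 111 reads in K562 and from 22 to 519 in HepG2. Those of BID ran from 149 to 698 and from 58 to 684, while the MCL1 range was narrower, 107 to 135 and 134 to 182. The intervals cover counting error on the summed reads alone, so an order without overlap may still depend on the junctions read. In K562 the order was BID at 55.5 reads per 1000000 per junction, MCL1 at 16.8, BCL2L1 at 9.83, BCL2L13 at 8.47, BCL2L12 at 6.87 and BAX at 4.87, then BCL2L11 at 1.43, BAD at 1.11, BAK1 at 0.935 and BCL2 at 0. Neighbours with overlapping intervals in K562 were BCL2L1 with BCL2L13, BCL2L13 with BCL2L12, BCL2L11 with BAD, and BAD with BAK1. In HepG2 BID led at 32.5, followed by BAX at 21.1, MCL1 at 16.4, BCL2L1 at 11.3, BCL2L12 at 2.56, BAD at 1.77, BCL2L13 at 1.14, BAK1 at 0.494, BCL2L11 at 0.312 and BCL2 at 0. The overlapping neighbours in HepG2 were BCL2L12 with BAD, BAD with BCL2L13, BAK1 with BCL2L11, and BCL2L11 with BCL2. BAX thus ranked sixth in K562 and second in HepG2, and BID was first in both. The BCL2L11 level is averaged over 3 coding junctions. At 1 of these, with 4 reads in K562 and 2 in HepG2, the longer form BIM-EL has no junction.

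The places of BAK1, BCL2L1 and MCL1 in that order rest on unique reads. Of the 4 coding junctions of BAK1, 3 had no unique read, and per junction with unique reads BAK1 had 3.74 in K562 and 1.98 in HepG2, above BCL2L11 and BAD in K562 and above BAD and BCL2L13 in HepG2. On all mapped reads, BCL2L1 had 13.1 per 1000000 per coding junction in K562 and 15.6 in HepG2, and MCL1 had 12.6 and 13.7, so MCL1 was above BCL2L1 with unique reads and below it with mapped ones. BID stayed first in both lines on all mapped reads, and BAX sixth in K562 and second in HepG2.

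**Figure D3:**
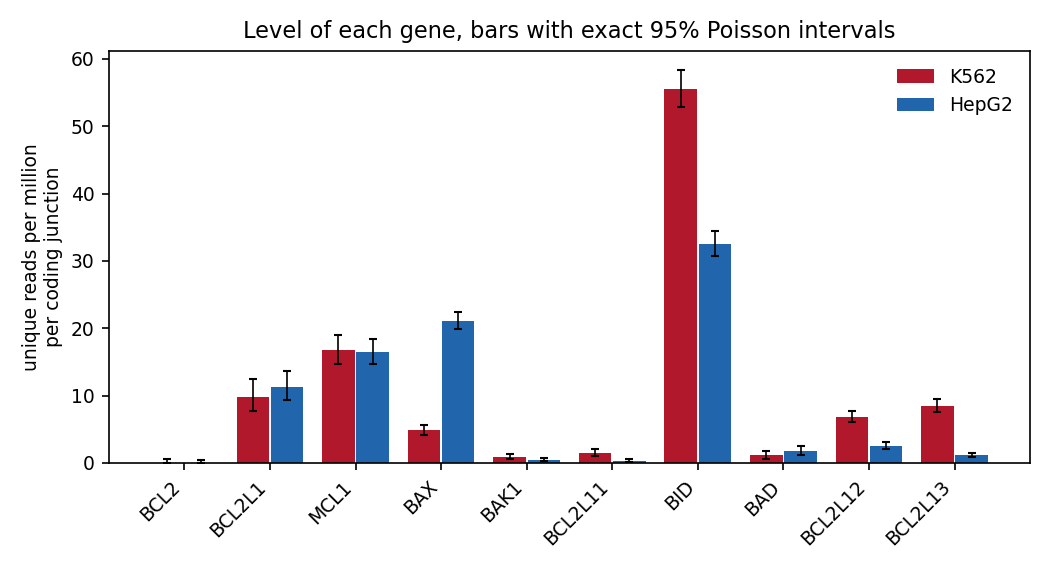
Unique reads per 1000000 per coding junction (y axis, linear from 0) for the 10 genes in K562 (left bar of each pair) and HepG2 (right bar), with exact 95% Poisson intervals. The intervals do not cover the spread between the junctions of a gene. BID is highest in both lines, and BAX is 4.87 in K562 and 21.1 in HepG2.

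Ratios between 2 members within a line need no scaling for depth and so are unaffected by the choice made above. Their size within a line depends on the junctions each gene offers, so only their change between the lines is read here. BAX had 1.62 reads per BCL2L1 read in K562 and 5.79 in HepG2, 3.57-fold lower in K562 (2.66 to 4.78). Against MCL1, BAX had 0.714 in K562 and 3.16 in HepG2, 4.43-fold lower in K562 (3.51 to 5.59). BAX was thus low in K562 relative to either guardian by more than the 2-fold limit. The other effector ran the other way: BAK1 had 0.237 reads per BCL2L1 read in K562 and 0.107 in HepG2, 2.21-fold higher in K562 (1.12 to 4.40), and against MCL1 the 1.78-fold difference spans equality (0.928 to 3.46), with the low unique share of BAK1 given above.

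BCL2L11 and BID lay on the other side. BCL2L11 had 5.38 reads per BCL2L1 read in K562 and 0.757 in HepG2, and on coding junctions alone 0.591 and 0.127, a 4.65-fold difference (2.42 to 9.28). BID had 15.2 reads per BCL2L1 read in K562 and 7.29 in HepG2, 2.08-fold higher in K562 (1.61 to 2.68), and against MCL1 it was 1.67-fold higher (1.40 to 2.01). BAD had 0.175 per BCL2L1 read in K562 and 0.266 in HepG2, and the ratio of these, 0.661, spans equality (0.352 to 1.21). Against MCL1, BAD had 0.0772 in K562 and 0.145 in HepG2, and the ratio of these, 0.532, lay below equality (0.291 to 0.944). On coding junctions alone that ratio, 0.560, spans equality (0.289 to 1.04). These are ratios of footprint counts, not of protein.

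The isoform junctions were compared as shares of the reads at a shared splice site with 20 or more reads in each line. A share counted as different at 20 percentage points or more with intervals that did not overlap. None (0) of the 33 member junctions measured, at 17 sites in 7 genes, met this, where 4.7% of 20141 junctions over all genes did. No p-value can be given for them, since each line is 1 table.

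BCL-xS, the short form of BCL2L1, took 17 of 88 reads in K562, or 19.3% (11.7 to 29.1), and 17 of 126 in HepG2, or 13.5% (8.06 to 20.7). Both lines therefore had footprints across both forms shown at the outset, with the long form the main one, and the intervals overlap. The level of the short-form share depends on unique mapping: the long-form junction had 127 mapped reads in K562 and 181 in HepG2, the short form had its 17 and 17, and on all mapped reads the short form took 11.8% in K562 and 8.59% in HepG2. The MCL1 junction that skips the 248-base exon took 17 of 124 reads at its donor in K562, or 13.7% (8.19 to 21.0), and 8 of 142 in HepG2, or 5.63% (2.46 to 10.8). These intervals overlap.

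BAX skipped its 147-base exon in 4 of 21 donor reads in K562 and 6 of 109 in HepG2, or 19.0% and 5.50%, with overlapping intervals. At the acceptor of the same join, which had more reads, the skip took 4 of 117 in K562 and 6 of 527 in HepG2. Those shares were 3.42% and 1.14%, also with overlapping intervals, so the level of BAX skipping depends on the end that is read. BCL2L12 skipped its 143-base exon in 20 of 79 donor reads in K562 against 5 of 25 in HepG2. These intervals overlap too. At 1 acceptor of BID, chr22:17739489 on the minus strand, the join from a first exon took 38 of 536 reads in K562, or 7.09% (5.07 to 9.60), and 9 of 458 in HepG2, or 1.97% (0.902 to 3.70). This site had the most reads of those compared here, and its intervals do not overlap, but the shares differ by 5.12 points. At its donor the same join took 38 of 107 reads in K562, or 35.5% (26.5 to 45.4). In HepG2 it took 9 of 33, or 27.3% (13.3 to 45.5), and these intervals overlap.

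**Figure D4:**
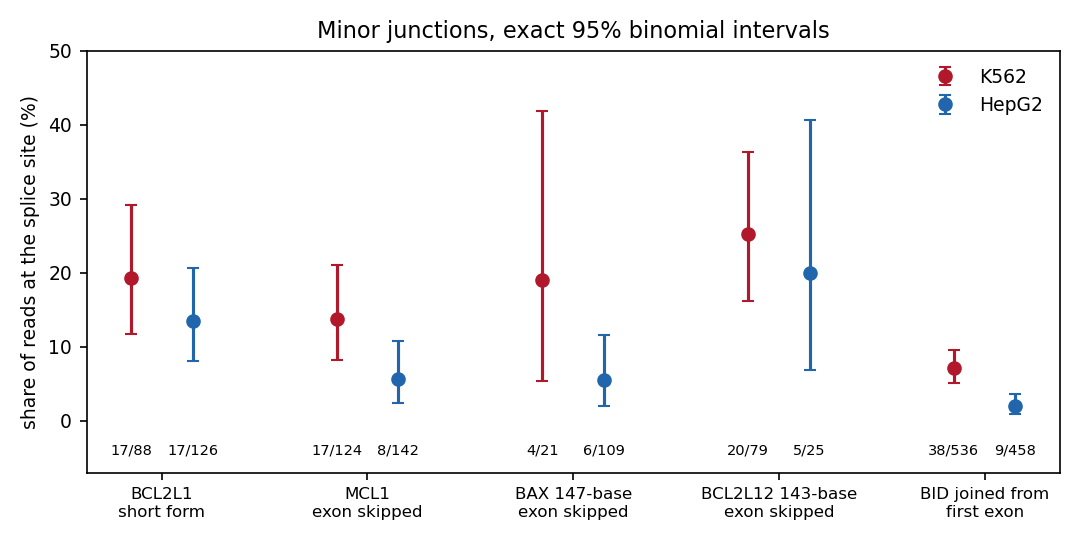
Share of reads at the splice site (y axis, percent) for 5 minor junctions in K562 (left point of each pair) and HepG2 (right point), with exact 95% binomial intervals and the reads behind each share. Shares are at the donor for MCL1, BAX and BCL2L12 and at the acceptor for BCL2L1 and BID. Each point of K562 is above that of HepG2, and of the pairs shown only BID has intervals that do not overlap. At the donor of the BID join, not shown, the intervals overlap.

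In BCL2L11, splicing of an internal 180-base intron marks the BIM-L form, while the longer BIM-EL keeps those bases and has no junction there. This junction had 4 reads in K562 and 2 in HepG2. The donor after the exon that codes for the BH3 segment joined the last coding exon of the main transcript in 19 K562 reads and 6 HepG2 reads, and an alternative exon in 12 and 6. With 31 reads at that donor in K562 and 12 in HepG2, no share of BCL2L11 coding forms could be compared between the lines.

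The genes that act around the family were read from 7 lists of 75 genes, put together with earlier results of these data known, so their counts describe the lists and are no independent evidence. Over all genes compared, 16.8% were higher in K562 and 21.9% lower, and the count of each list is to be read against these shares. Of 6 other multidomain relatives 2 could be compared, BOK with 6 reads in K562 and 104 in HepG2, counted as lower in K562, and BCL2L2 (BCL-w) with 5 and 20, which counts as lower only when junctions it shares with another gene are added (-2.17 on the log2 scale).

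Of 10 further BH3-only and BNIP genes 8 could be compared, 1 was higher in K562, 1 lower, and the median log2 ratio was -0.31. PMAIP1, whose product NOXA binds MCL1, had 32 reads in K562 against 1 in HepG2, 31.9-fold higher in K562 with a wide interval of 5.32 to 1297. The mitophagy receptor BNIP3 had 9 in K562 and 330 in HepG2, 36.8-fold lower in K562 (19.2 to 81.3), though only 15.3% of its mapped reads in K562 and 24.0% in HepG2 were unique. BNIP2 and BECN1 passed neither limit.

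All 23 partners and regulators of the family could be compared, with 3 higher in K562, 2 lower, 18 neither, and a median of -0.09. PIM1, a kinase known to phosphorylate BAD, had 2841 reads in K562 and 268 in HepG2, 10.6-fold higher in K562, and its relative PIM2 had 379 and 127. Among the 14-3-3 proteins, which hold phosphorylated BAD in the cytosol, YWHAG was higher in K562 (2186 and 602 reads) and YWHAQ lower (3190 and 6930), while YWHAB and YWHAE passed neither limit. MTCH2, a docking protein for cleaved BID, was lower in K562 (2362 and 6335 reads). With scaling by total reads the calls of MTCH2 (-1.01 on the log2 scale) and YWHAQ (-0.71) were lost, and YWHAQ also lost its call on all mapped reads (-0.99), on coding junctions (-1.05) and past 60 coding bases (-1.01).

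Downstream of the pore, 11 genes of the apoptosome, released factors and caspases were read, a list not reported here in full, so its counts do not stand for all caspases. All 11 could be compared, with 3 higher in K562 and 8 past neither limit, and a median of 0.41. CYCS, cytochrome c itself, had 3954 reads in K562 and 753 in HepG2, 5.23-fold higher in K562 (4.83 to 5.66). Only 48.5% of its mapped reads in K562 and 41.8% in HepG2 were unique, and on all mapped reads the interval was 4.20 to 4.66. CASP9, the caspase that cytochrome c activates, had 342 and 84, and CASP2 had 853 and 342. CASP8, the caspase that cleaves BID, had 522 reads in K562 against 696 in HepG2 and passed neither limit, nor did AIFM1. Of 8 caspase inhibitors 5 could be compared and 0 were called, with a median of -0.39; BIRC5 (survivin) had 1233 K562 reads against 1319 HepG2 reads, and BIRC6 had 1282 and 2113.

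All 7 death receptors and adaptors could be compared, with 1 higher in K562 and 2 lower. FAS had 1 read in K562 and 266 in HepG2. The TRAIL receptors stood on opposite sides: TNFRSF10A had 878 reads in K562 and 176 in HepG2, 4.97-fold higher in K562 (4.22 to 5.87), and TNFRSF10B had 248 and 1347, 5.46-fold lower in K562 (4.76 to 6.27). TNFRSF1A and RIPK1 passed neither limit.

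**Figure D5:**
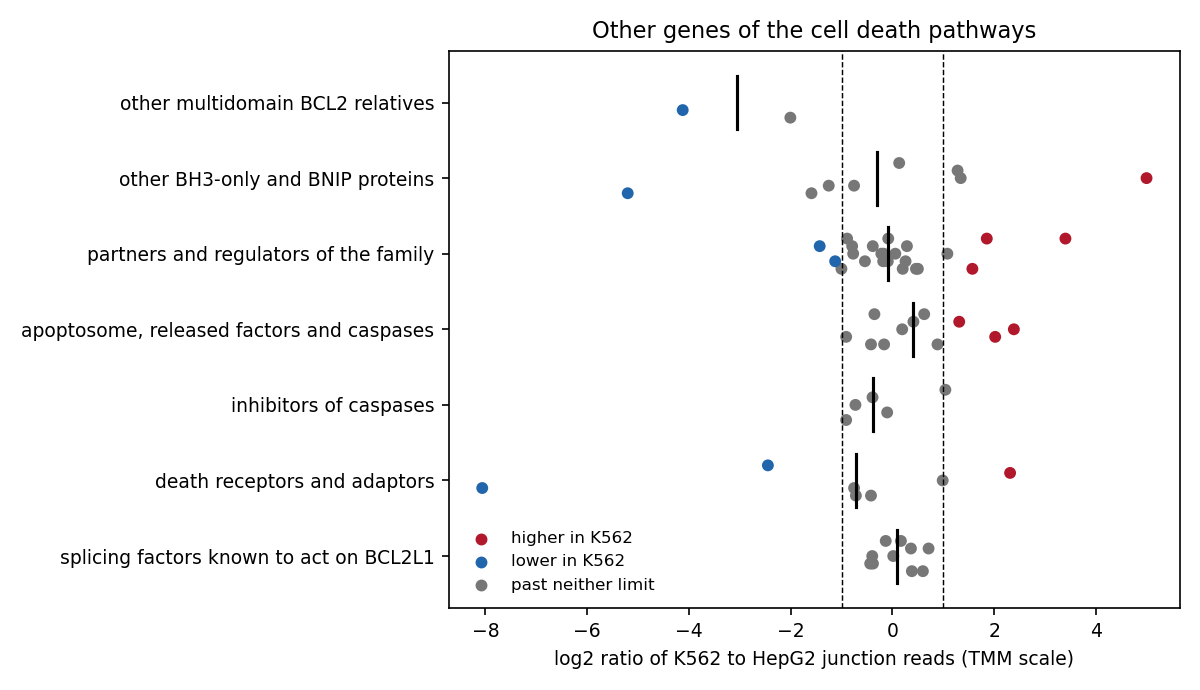
Log2 ratio of K562 to HepG2 junction reads (x axis) for each gene compared in the 7 lists (rows), with red for higher in K562, blue for lower in K562 and grey for past neither limit; black ticks are list medians and dashed lines mark 2-fold. The apoptosome list has 3 red points and a median of 0.41, and the splicing factor list has all points between the dashed lines.

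Since BCL2L1 is a well-known example of regulated splicing, 10 splicing factors reported to act on it were also read. All could be compared, 0 were called, and the median was 0.09. HNRNPH1 had 7443 K562 reads against 9662 HepG2 reads, and PTBP1 had 7977 and 7077.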

How the data were processed

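Footprints of 2 samples of K562 and 2 of HepG2 were profiled, and the authors pooled each line into 1 table, per the labels. The tables as deposited give raw counts of reads for each listed junction, all mapped and unique in separate columns, per the file headers. The submitters' processing notes name cutadapt, Bowtie2, STAR 2.6.0 and GRCh38. The role of each tool is not given in the sources used here, nor are the counter and the annotation.

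Junctions were matched to introns of GENCODE 29 (350016 of 350863, 99.8%). Unique reads were summed per gene, leaving out 6033 junctions of more than 1 gene, none (0) of which named a member. Depth after this was 7222089 reads in K562 and 9607307 in HepG2, scaled with TMM in edgeR 4.0.16. Ratios carry exact conditional binomial (Clopper-Pearson) intervals, shares exact binomial and levels exact Poisson intervals. Counting error is all they cover, because each line has 1 pooled table. They may be too narrow even for that, because reads that carry no molecular identifiers may be copies of 1 molecule. In ratios, 3 reads stood in for 0. Coding annotation took precedence where transcripts disagreed on a junction's class. The calculation was tested on simulated data. DESeq2 1.42.0 size factors and the other alternatives are covered in the closing section.

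The members and lists were chosen with earlier results of these data known. Named genes are all members, and of each list up to 6 genes past 2-fold and the 2 most-read that were not, with any gene at 0 in 1 table and 20 or more reads in the other. Some genes of the lists, and 1 further list, are not reported here, and their genes were left out of the list counts. No protein sequences were used here. Signal tracks are not analysed here.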

Additional observations from a re-analysis of the deposited data

Results flagged for a closer look

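BAK1 had more than 3 mapped reads in a line at 4 junctions that carried no unique read and so entered no comparison. The junction chr6:33577636-33580024 had 14 such reads in K562 and 6 in HepG2. The junction chr6:33575929-33577534 had 5 in K562 and 2 in HepG2. The junction chr6:33575442-33575792 had 13 in K562 and 12 in HepG2, and chr6:33573908-33574033 had 23 in K562 and 27 in HepG2. A further junction, chr6:33574215-33574505, had 0 in K562 and 2 in HepG2. A read that maps to several places can be counted at more than 1 of them, so these values are no level of BAK1.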

How the results depend on the processing

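Of the counts and shares over all genes or all members, 25 values under alternatives stayed within their limits and 3 moved. Junction share calls came to 500 in place of 946 when a site needed 50 reads, a rule that leaves fewer sites. Where untranslated annotation took precedence, the 5′ untranslated share of member reads was 40.3% in K562 and 22.3% in HepG2. With scaling by total reads there were 2653 genes higher in K562 and 1925 lower, against 1836 and 2402. Among single genes, 486 of 498 values kept their call or lack of one, 8 calls were lost and 4 were gained. The sign changed in 13 values, none of them (0) called, among them MCL1, YWHAB, YWHAE, BIRC5 and HNRNPH1 with scaling by total reads. BCL2L11 lost its call without its most-read junction (log2 1.71), on coding junctions (1.77) and past 60 coding bases (1.81), the last a setting chosen after seeing the data, as were the pair ratios, the levels and short-form shares on all mapped reads and the all-gene untranslated shares with that annotation first. BCL2L12 gained one with total reads (1.41). BAX and BCL2L13 kept theirs under all 10 settings. No paired analysis was possible because each line has 1 pooled table whose columns carry no replicate number, and for the same reason no sample could be left out. Depth limits BCL2, BAD and the isoform shares, and unique mapping limits BAK1 and BCL2L1.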

Other observations

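Of the 116 listed junctions of the members, 66 had a unique read in K562 and 57 in HepG2, 50 of them in both. BCL2L13 used several minor joins in K562: of 29 reads at the donor of chr22:17689143-17696140, 15 went to the next exon, 9 joined chr22:17689143-17702242 and 3 joined chr22:17689143-17726676, while HepG2 had 1 read at that donor. At the acceptor shared by the last junctions of BCL2L13, skipping a 144-base exon alone was seen in 11 of 92 K562 reads and in 1 of 10 HepG2 reads. A further 3 of the 92 K562 reads left out that exon together with the one before it, 214 bases in all. In BCL2L11, a join from the first coding exon over chr2:111124140-111128626 had 6 reads in K562 and 0 in HepG2, which is too few for a comparison.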
